A study of Mus musculus with 12 samples.

Results

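The nuclear-encoded genes of respiratory chain complexes I to IV were followed in the abdominal fat of wild type and p47phox null mice. They were picked by gene symbol from a list of 42 genes, and 41 of them had a probe set on the array, out of 18195 genes measured in all. The 41 comprise 21 subunits of complex I, the 4 subunits of complex II, 6 of complex III, cytochrome c (Cycs), 6 of complex IV and 3 assembly factors of complex IV (Cox10, Cox15 and Surf1). Cox7b had no probe set with a single gene name and is not analysed here. The 41 genes are covered by 92 probe sets, with 1 to 6 probe sets a gene, which were averaged.

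Total RNA was hybridised to 12 Affymetrix arrays, each holding a pool of fat pads. There were 3 pools in each of 4 groups, namely wild type mice on casein, p47phox null mice on casein, wild type mice on the high fat diet (HFD) and p47phox null mice on the HFD. All mice were C57BL/6 females, put on their diet at postnatal day 28 and killed after 13 weeks. The null mice lack p47phox in every tissue as far as the labels say, since no tissue-specific driver is named. How many animals made up a pool is not stated, and each p-value measures the spread between pools.

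The respiratory chain passes electrons from NADH and succinate to oxygen and pumps protons across the inner mitochondrial membrane. Complex I takes electrons from NADH, complex II takes them from succinate, complex III hands them through cytochrome c to complex IV, and complex IV reduces oxygen. p47phox, encoded by Ncf1, is the cytosolic organiser of the phagocyte NADPH oxidase. Brown and beige adipocytes are rich in mitochondria and white adipocytes hold few, and skeletal muscle has isoforms of complex IV subunits of its own.

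Promoters of respiratory chain genes are known for sites of the factors NRF1, GABPA, ERRα and YY1, so the windows of 4 of the genes described below are printed to show such letters. RefSeq (GRCm38.p6) gave a window from 250 bases before to 50 bases after the start of 31 of the 41 genes. Capitals mark matches to the NRF1 core GCGCATGCG, the GABPA motif CCGGAAG, the ERR motif TCAAGGTCA or the YY1 motif AAGATGGCG on either strand. Ndufa8 lies at chr2:36049289-36049588 on the minus strand, Sdhd at chr9:50603800-50604099 on the minus strand, Uqcrc1 at chr9:108936398-108936697 on the plus strand and Cycs at chr6:50566520-50566819 on the minus strand. Each is written in the direction of its gene.
Ndufa8: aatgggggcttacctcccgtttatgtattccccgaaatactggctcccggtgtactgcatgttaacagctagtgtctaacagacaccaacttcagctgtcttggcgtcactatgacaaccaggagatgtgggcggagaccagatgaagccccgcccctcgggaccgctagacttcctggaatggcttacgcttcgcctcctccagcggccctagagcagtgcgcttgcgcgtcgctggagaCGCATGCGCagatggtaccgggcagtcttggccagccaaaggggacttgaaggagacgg
Sdhd: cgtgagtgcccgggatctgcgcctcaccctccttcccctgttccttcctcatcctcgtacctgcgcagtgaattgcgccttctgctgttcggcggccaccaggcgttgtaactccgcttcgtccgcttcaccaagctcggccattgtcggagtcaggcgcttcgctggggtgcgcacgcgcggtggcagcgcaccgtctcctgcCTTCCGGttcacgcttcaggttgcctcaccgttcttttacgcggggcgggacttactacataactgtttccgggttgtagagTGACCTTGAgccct
Uqcrc1: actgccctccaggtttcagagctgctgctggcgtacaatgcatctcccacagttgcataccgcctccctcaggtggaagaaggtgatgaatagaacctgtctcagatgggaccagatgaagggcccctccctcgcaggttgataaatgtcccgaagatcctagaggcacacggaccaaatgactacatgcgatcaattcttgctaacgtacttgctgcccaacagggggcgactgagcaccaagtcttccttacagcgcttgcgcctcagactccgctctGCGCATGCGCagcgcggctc
Cycs: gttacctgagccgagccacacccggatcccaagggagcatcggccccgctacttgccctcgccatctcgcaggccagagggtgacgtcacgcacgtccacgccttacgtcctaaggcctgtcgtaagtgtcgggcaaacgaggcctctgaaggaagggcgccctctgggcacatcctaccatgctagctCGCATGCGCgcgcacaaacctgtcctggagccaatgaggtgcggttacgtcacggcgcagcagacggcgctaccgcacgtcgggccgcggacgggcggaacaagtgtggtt
The NRF1 core occurred in 3 of the 32 windows of these genes (9.38%), those of Ndufa8, Uqcrc1 and Cycs, and in 1.75% of the 32851 windows of the same length in the table. The match lay at -9 from the start in Ndufa8 and at -61 in Cycs. The matches in Uqcrc1 overlap on opposite strands. The GABPA motif was in 21.9% of these windows against 8.86% of all, the YY1 motif in 15.6% against 1.4%, and the ERR motif in 3.12%, that of Sdhd alone, against 0.423%. The GC box GGGCGG, searched the same way, was in 50% against 35.7%, the CCAAT box in 18.8% against 37.4% and the TATA box TATAAA in 6.25% against 13.6%. These are matches of letters, and no binding was measured.

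The deposited values are log2 values from which the median of each probe set over the 12 arrays had been subtracted. A value of 0 is therefore the middle of the 12 pools for that gene, and only differences between pools can be read, not levels or signal over background. For the same reason the labelled tissue could not be checked for absent markers. Ncf1 was lower in the 6 null pools, from -0.29 to -0.19, than in the 6 wild type pools, from 0.07 to 0.85, so it went with the genotype labels. Correlations over all genes between pools of a group ran from -0.36 to 0.70. They are of centred values, without the differences in level between genes. They therefore cannot be read as the usual agreement between replicate arrays. No label names a batch.

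The 41 genes moved together from pool to pool. Their median was highest in wild type casein pool 2, at 0.36, where all 41 values lay above 0. It was next highest in wild type HFD pool 2, at 0.18 with 40 of 41 above 0, and in wild type casein pool 3, at 0.15 with 37 above 0. It was lowest in wild type HFD pool 3, at -0.19 with 37 of 41 below 0. The 3 null HFD pools stood at -0.08, -0.12 and -0.12, with 29, 40 and 30 of the 41 genes below 0. The 3 null pools on casein lay near 0, at -0.06, 0.01 and 0.07. The medians of wild type pools thus spanned the whole range, while those of null pools lay close to each other within each diet. Single genes could lie further apart, as Ndufs1 did in null HFD pools, at 0.08, -0.18 and -0.56.

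**Figure D1:**
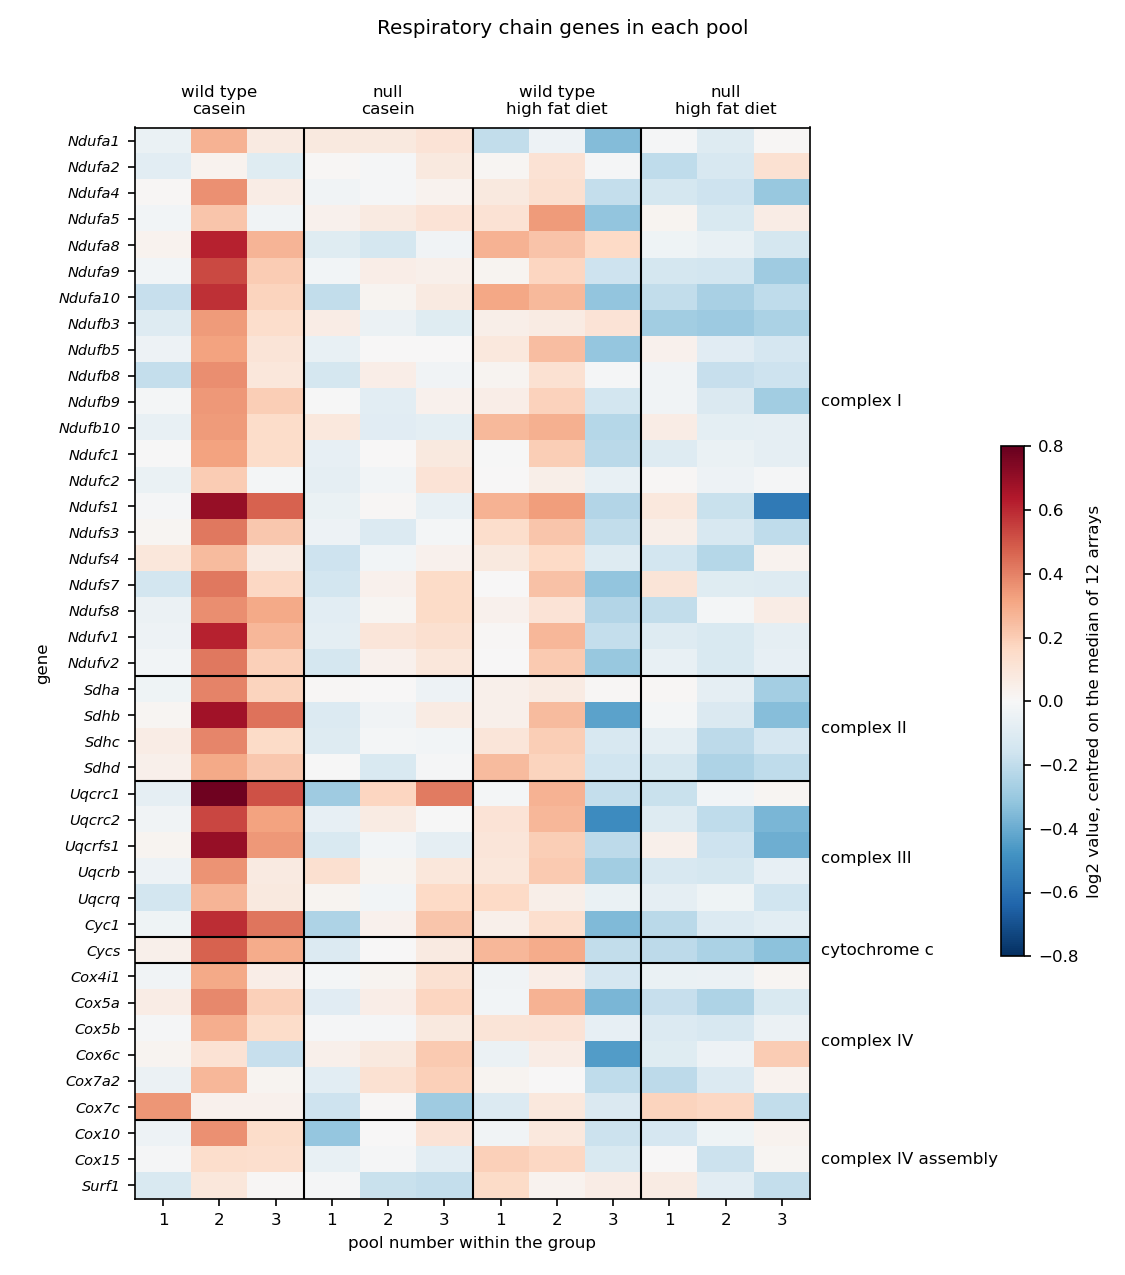
Each row is a respiratory chain gene and each column a pool, grouped by genotype and diet, and the colour gives the log2 value centred on the median of the 12 arrays. Wild type casein pool 2 is red in all 41 rows, and wild type HFD pool 3 is blue in 37.

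Wild type casein pool 2 held the highest of the 12 values for 35 of the 41 genes (85.4%), against 14.5% of all genes. Wild type HFD pool 3 held the lowest for 17 (41.5%), against 8.30% of all genes. Null HFD pool 3 held the lowest for 10 (24.4%, against 17.2%). From the lowest pool to the highest the genes spanned a median of 0.64, against 0.50 over all genes. The narrowest span was that of Ndufc2, at 0.27, and the widest was that of Ndufs1, at 1.26. These are spans of gene means, and averaging narrows a span where probe sets differ. The probe sets of Ndufc2 spanned 0.34 to 0.59 each, Ndufs1 has a single probe set, and a probe set of Cycs spanned 1.37.

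Markers of other tissues also differed between pools, and their values stand here beside the respiratory chain median. The median of 8 brown and beige adipocyte genes was highest in the same pool, wild type casein pool 2, at 1.34, and next in wild type HFD pool 2, at 0.90. On casein it lay from 0.54 to 1.34 in wild type and from -0.87 to 0.39 in null mice, and on the HFD from -0.76 to 0.90 in wild type and from -0.65 to -0.13 in null mice. The median of 22 skeletal muscle genes was highest in wild type HFD pool 2 (4.54), null HFD pool 1 (3.58) and wild type casein pool 1 (2.76), and it was -0.33 in wild type casein pool 2. The other 9 pools lay between -1.66 and 1.82. The median of 14 liver genes stood at 4.49 in wild type casein pool 3 and at most 1.41 elsewhere. The median of 13 ovary, oviduct and uterus genes lay between -1.09 and 0.19 in wild type pools on casein and between -0.96 and -0.72 in wild type HFD pools. It lay between -0.02 and 0.27 in null pools on casein and between 0.12 and 0.81 in null HFD pools. The median of 15 mature adipocyte genes was 0.39 in wild type casein pool 2, between 0.17 and 0.20 in wild type HFD pools and between -0.52 and -0.05 in null HFD pools. By the same limma fit, 6 of the 13 reproductive tract genes were higher and 6 of the 15 mature adipocyte genes lower in null mice on the HFD, where 5.92% of all genes passed in either direction. Over both diets, where 7.52% passed, the counts were 7 of 13 higher and 6 of 15 lower. Of the 8 brown and beige genes 1, Otop1, was lower in null mice over both diets, while 0 of the 22 muscle and 0 of the 14 liver genes passed for genotype. The median of 8 endothelial genes was 0.25, 0.25 and 0.60 in wild type HFD pools and -0.03, -0.08 and -0.24 in null HFD pools, with a median difference of -0.48. On the HFD 7 of these 8 genes were lower without overlap, against 17.3% of all genes, and 2 passed, Pecam1 and Esam, and over both diets 1 passed, Kdr. The median of 11 macrophage genes was -0.01, 0.35 and 0.54 in wild type HFD pools, against 0.01, 0.07 and -0.13 for null HFD pools, and 0 of them passed for genotype. In wild type casein pool 3 the median was 2.38 for 7 adrenal genes and 1.42 for 7 lymphocyte genes, against at most 0.12 and 0.16 in the other pools. Of these, 1 adrenal gene, Mc2r, was lower in null mice over both diets and 0 lymphocyte genes passed for genotype. The part of these tissues in the respiratory chain values was not tested beyond the fits with marker medians given below. In such bulk samples fewer mitochondria-rich cells and less RNA per cell cannot be told apart.

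**Figure D2:**
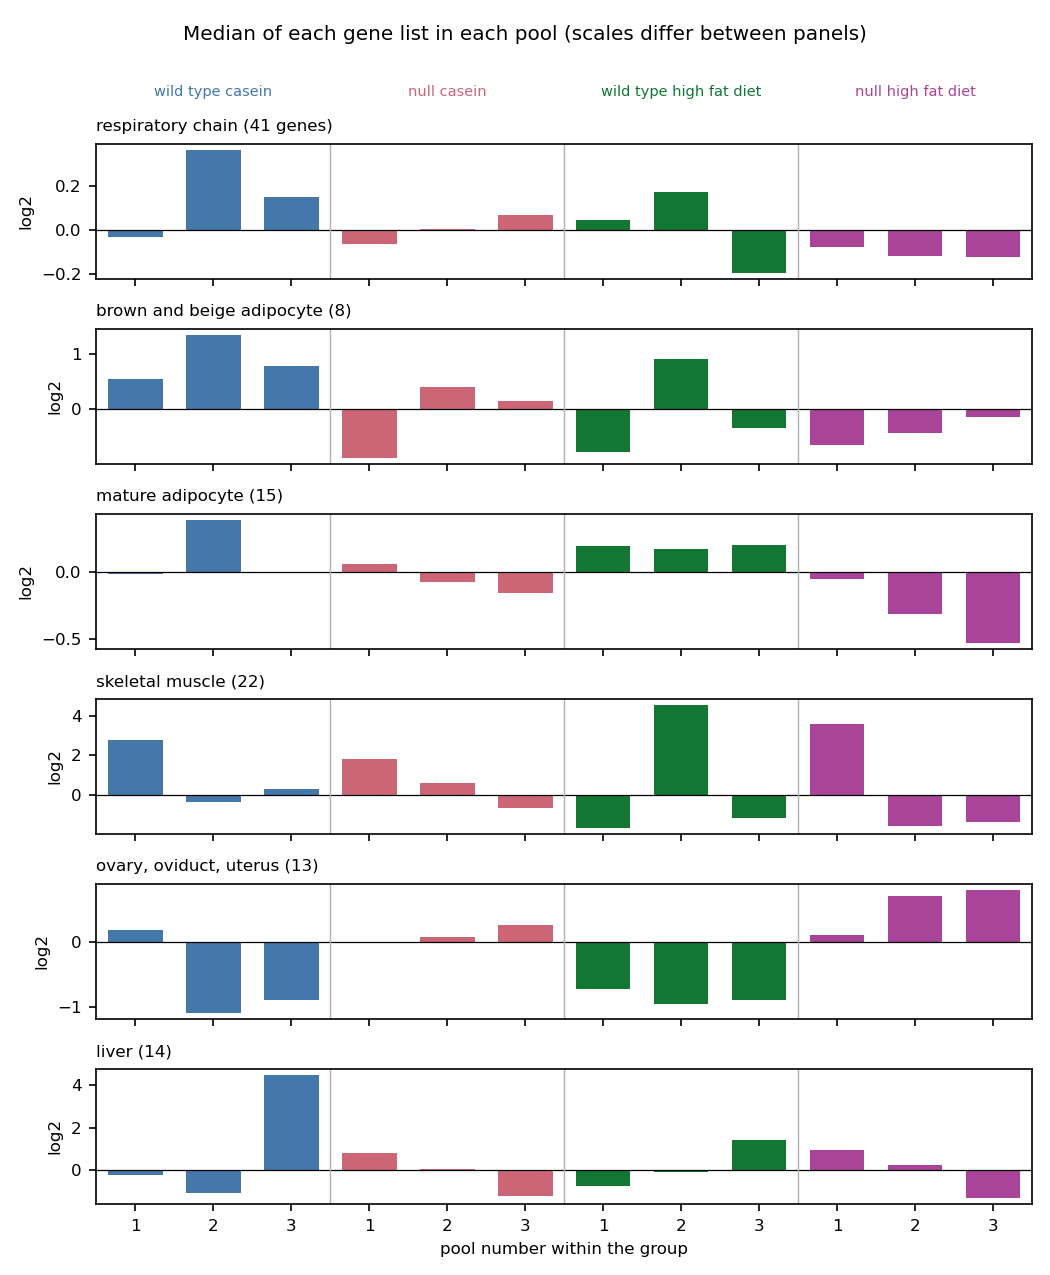
Bars give the median log2 value of each gene list in each pool, from 0, with a scale of its own in each panel and pools grouped and coloured by genotype and diet. The respiratory chain and the brown and beige adipocyte genes both peak in wild type casein pool 2, at 0.36 and 1.34, and the reproductive tract genes are highest in null HFD pools 2 and 3.

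Genes were tested with limma over all 12 arrays with Benjamini-Hochberg adjustment over the 18195 genes and a threshold of 0.05. Differences are null minus wild type or HFD minus casein, on the log2 scale. With the diets averaged, 1 of the 41 genes passed, Ndufa8, and it was lower in null pools, against a background of 7.52% of all genes in either direction and 3.42% lower in null pools. The median difference of the 41 genes was -0.15 and 39 lay below 0, against a median of -0.02 and 57.1% below 0 over all genes. An unadjusted p under 0.05 was reached by 13 of the 41 (31.7%), all lower in null pools, against 25.6% of all genes. The share called was no higher than the background, and the share with a negative difference was above that of all genes.

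Within each diet 0 of the 41 passed. On the HFD the background was 5.92%, the median of the 41 genes was -0.13 against -0.03 over all genes, and 4 genes had an unadjusted p under 0.05, against 24.9% of all genes. On that diet all 3 null pools lay below all 3 wild type pools for 5 genes (Ndufa8, Ndufb3, Ndufb8, Sdha and Cycs), which is 12.2% against 17.3% of all genes, and above them for 0, against 14.9%. For Ndufb8 and Sdha this held for the mean of their probe sets and for no probe set alone. In wild type HFD pool 3 the Sdha probe sets ran from -0.27 to 0.56. On casein the background was 0%, the median was -0.18 against -0.01, and 3 genes had an unadjusted p under 0.05, against 8.12%. On casein the null pools lay wholly below for 7 genes (Ndufa8, Ndufs3, Ndufs4, Sdhc, Sdhd, Uqcrfs1 and Cox7c), 17.1% against 6.57% of all genes, and wholly above for 0, against 5.4%. The wild type pools carried most of the spread, since the SD of the 41-gene median between pools was 0.20 in the wild type and 0.07 in the null group on casein, and 0.19 and 0.03 on the HFD. Without wild type casein pool 2 the casein median was -0.07, and without wild type casein pool 1 it was -0.27. Without wild type HFD pool 2 the HFD median was -0.04, and without pool 3 of that group it was -0.23.

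No gene of the 41 passed for diet. In wild type pools the background was 0%, the median diet difference was -0.14 against 0.00 over all genes, and 39 genes lay below 0 against 49.7%. An unadjusted p under 0.05 was reached by 1 gene, Ndufa1, against 7.61% of all genes. The wild type diet groups overlapped for all 41 genes, whereas 4.86% of all genes lay wholly lower and 7.07% wholly higher. In null pools the background was 0% as well, the median was -0.10 against -0.00, and 37 genes lay below 0 against 50.1%. In null pools 1 gene, Ndufb3, had an unadjusted p under 0.05, against 4%. The null HFD pools lay wholly below the null pools on casein for 11 of the 41 genes (26.8%), against 5.7% of all genes, and wholly above for 0, against 4.89%. Those 11 were Ndufa1, Ndufa4, Ndufa9, Ndufb3, Sdhd, Uqcrb, Uqcrc2, Uqcrq, Cycs, Cox5a and Cox5b. For Sdhd and Cox5a this held for the mean of their probe sets and for no probe set alone. The wild type casein group enters the wild type diet comparison and the casein genotype comparison, so these share pool 2 of that group. The wild type diet median was -0.05 without wild type casein pool 2, -0.22 without pool 1 of that group, -0.23 without wild type HFD pool 2 and -0.06 without pool 3 of that group. Averaged over the genotypes, the median diet difference was -0.12, with 39 genes below 0 and 3 with an unadjusted p under 0.05, against 5.23%. In that comparison 0.0055% of all genes passed. For the interaction, which is the diet difference in null mice less that in wild type mice, 0 of the 41 passed against 0%, 0 had an unadjusted p under 0.05 against 6.12%, and the median was 0.04.

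**Figure D3:**
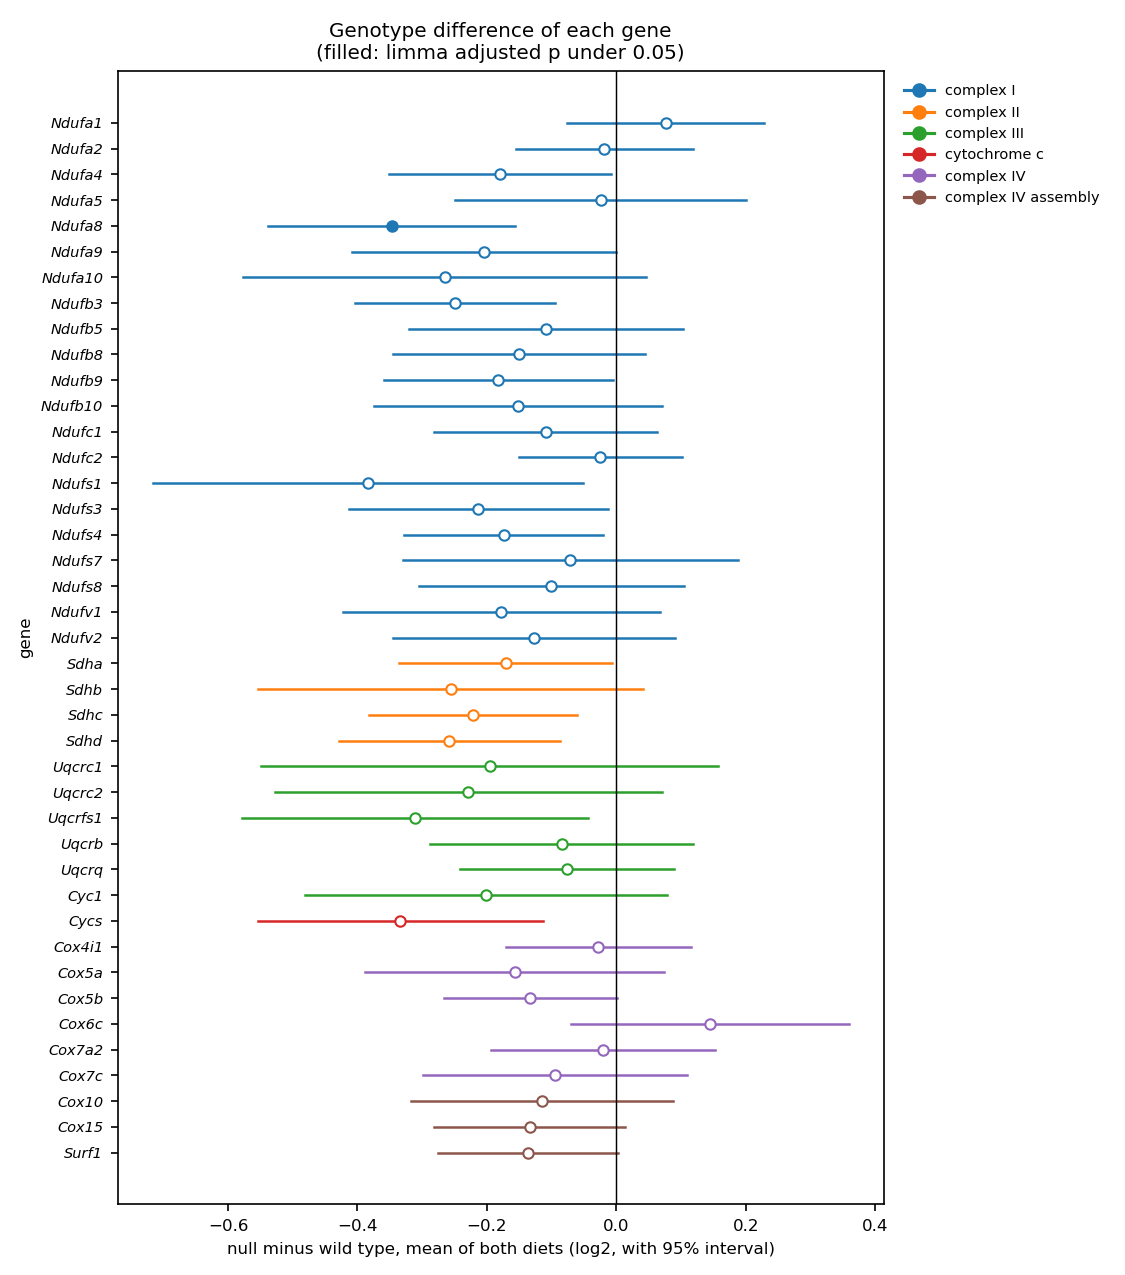
Points give the difference of each gene, null minus wild type averaged over both diets on the log2 scale, with its 95% interval from limma, coloured by complex. Ndufa8 is the filled point, at -0.35, and Ndufa1 and Cox6c are the points to the right of 0.

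Complex I is the largest of the complexes, with a peripheral arm that holds the flavin and the iron-sulfur clusters and a membrane arm that pumps protons. Its 21 genes had a median genotype difference of -0.15 with the diets averaged, and 20 lay below 0. Ndufa8, an accessory subunit on the intermembrane space side, was at 0.03, 0.62 and 0.27 in wild type pools 1 to 3 on casein and at 0.28, 0.23 and 0.16 in wild type HFD pools. It was at -0.09, -0.14 and -0.03 in null pools on casein and at -0.03, -0.06 and -0.14 in null HFD pools. All 6 null pools lay below all 6 wild type pools, which holds for 1.8% of all genes in this direction and for 1.27% in the other, and for no other of the 41 genes. The mean of Ndufa8 was 0.26 ± 0.20 (SD, n = 6) over the wild type pools and -0.08 ± 0.05 over the null pools. Its difference was -0.35 ± 0.09 (SE), with a 95% interval from -0.54 to -0.16 and an adjusted p of 0.0393. Within the diets it was -0.39 ± 0.12 on casein (adjusted p = 0.542) and -0.30 ± 0.12 on the HFD (adjusted p = 0.159). A single probe set measures Ndufa8. The adjusted p was 0.00718 without wild type casein pool 1 and 0.0445 without null HFD pool 1, and it lay between 0.0508 and 0.0974 without any 1 of the other 10 pools. With the medians of muscle, reproductive tract and liver markers as covariates the difference was 0.01. In that fit the reproductive tract median itself went with genotype on the HFD.

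Ndufb3, a small accessory subunit of the membrane arm, was at -0.28, -0.29 and -0.25 in null HFD pools. It was at 0.05, 0.07 and 0.11 in wild type HFD pools, at 0.06, -0.05 and -0.10 in null pools on casein and at -0.10, 0.34 and 0.14 in wild type pools on casein. The null HFD pools thus lay below the 9 others, and the casein pools of the genotypes overlapped. Its genotype difference on the HFD was -0.35 ± 0.10 (SE, adjusted p = 0.0627) and with the diets averaged -0.25 ± 0.07 (adjusted p = 0.0555). Its diet difference in null pools was -0.25 ± 0.10 (adjusted p = 0.9996) and its interaction was -0.19 ± 0.14 (adjusted p = 0.829).

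Ndufs1, the largest iron-sulfur subunit of the peripheral arm, had the widest span of the 41 genes. It was at -0.01, 0.69 and 0.47 in wild type pools on casein and at 0.28, 0.34 and -0.23 in wild type HFD pools. It was at -0.05, 0.01 and -0.06 in null pools on casein and at 0.08, -0.18 and -0.56 in null HFD pools. The genotypes overlapped on both diets, and null HFD pool 3 was the lowest of the 12. Ndufb8, an accessory subunit of the membrane arm, was at -0.19, 0.37 and 0.09 in wild type pools on casein, -0.14, 0.06 and -0.03 in null pools on casein, 0.02, 0.12 and -0.01 in wild type HFD pools and -0.03, -0.18 and -0.16 in null HFD pools. Its genotypes overlapped on casein and did not overlap on the HFD, where the difference was -0.17. The separation held for the mean of its probe sets and not for either alone. They were at -0.22 and 0.20 in wild type HFD pool 3.

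Ndufa1, a small X-linked accessory subunit, had the smallest p of the 41 genes for diet in wild type pools. It was at -0.20, -0.04 and -0.35 in wild type HFD pools against -0.05, 0.28 and 0.07 in wild type pools on casein. In null pools it was at -0.01, -0.10 and 0.01 on the HFD against 0.08, 0.08 and 0.11 on casein. The diet groups overlapped by 1 pool in wild type mice and did not overlap in null mice. The difference was -0.30 ± 0.10 (SE) in wild type pools (adjusted p = 0.586) and -0.21 ± 0.07 over both genotypes (adjusted p = 0.853). For Ndufa9, at the junction of the arms, it was -0.22 ± 0.09 over both genotypes (adjusted p = 0.940), and for Ndufa4 it was -0.17 ± 0.08 (adjusted p = 0.942). Ndufa4 carries a complex I name, although its protein has since been placed with complex IV. Their diet differences in null pools were -0.21 ± 0.13 and -0.20 ± 0.11 (adjusted p = 0.9996 for both), and the interaction was -0.19 ± 0.12 for Ndufa2 (adjusted p = 0.811) and 0.17 ± 0.14 for Ndufa1 (adjusted p = 0.835).

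Of the other subunits of complex I, those that bind the flavin or iron-sulfur clusters had genotype differences, with the diets averaged, of -0.18 for Ndufv1, -0.13 for Ndufv2, -0.07 for Ndufs7 and -0.10 for Ndufs8. Ndufs3, a core subunit next to the ubiquinone site, was at -0.21 and Ndufs4, an accessory subunit needed for a stable peripheral arm, at -0.17, and the genotypes did not overlap on casein for either. Of all 21 genes, Ndufa1 alone lay above 0 in this comparison, at 0.08. Ndufa2, Ndufa5 and Ndufc2 lay within 0.03 of 0. Median values by pool of the 21 genes ran from -0.20 in wild type HFD pool 3 to 0.36 in wild type casein pool 2.

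Complex II is succinate dehydrogenase, which also works in the citric acid cycle, and all 4 of its subunits lay below 0 in the genotype and diet comparisons. With the diets averaged its median genotype difference was -0.24. Sdhb, the iron-sulfur subunit, was at 0.02, 0.67 and 0.44 in wild type pools on casein and at -0.11, -0.03 and 0.07 in null pools on casein. On the HFD it was at 0.04, 0.25 and -0.43 in wild type pools and at -0.02, -0.12 and -0.34 in null pools. The genotypes overlapped on both diets, and the lowest of the 12 values was from a wild type pool. Its diet difference in wild type pools was -0.42 ± 0.19 (SE, adjusted p = 0.654) and its genotype difference over both diets was -0.26.

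Sdhd, a membrane anchor, was at 0.04, 0.31 and 0.21 in wild type pools on casein, -0.00, -0.12 and -0.01 in null pools on casein, 0.25, 0.18 and -0.16 in wild type HFD pools and -0.14, -0.25 and -0.20 in null HFD pools. Its genotypes did not overlap on casein and overlapped on the HFD through wild type pool 3. Its probe sets differed, and the one ending in _x_at alone overlapped on casein. In null HFD pools that probe set was at -0.34, -0.37 and 0.01, and the other was at 0.07, -0.13 and -0.41. The difference of the Sdhd mean was -0.29 ± 0.11 (SE) on the HFD (adjusted p = 0.137) and -0.26 ± 0.08 over both diets (adjusted p = 0.0679). Sdhc, the other anchor, differed by -0.25 ± 0.10 on casein (adjusted p = 0.592) and was also separated there. Sdha, the flavoprotein, was at -0.17 over both diets.

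Complex III is the cytochrome bc1 complex, and all 6 genes measured lay below 0 for genotype and for diet when averaged over the other factor, with medians of -0.20 and -0.24. After Ndufs1 and Sdhb, the widest spans of the 41 genes, as means of their probe sets, were those of Uqcrfs1 (1.09), Uqcrc1 (1.06) and Uqcrc2 (1.04). Uqcrfs1, the Rieske iron-sulfur protein, was at 0.02, 0.69 and 0.34 in wild type pools on casein against -0.12, -0.02 and -0.07 in null pools on casein. On the HFD it was at 0.09, 0.20 and -0.21 in wild type pools and at 0.04, -0.16 and -0.39 in null pools. The casein groups did not overlap and the HFD groups did. Its genotype difference on casein was -0.42 ± 0.17 (SE, adjusted p = 0.592) and its diet difference in wild type pools was -0.32 ± 0.17 (adjusted p = 0.693).

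Uqcrc1, a core protein of complex III, was at -0.07, 0.78 and 0.51 in wild type pools on casein and at -0.28, 0.17 and 0.41 in null pools on casein, so the casein groups overlapped widely. It was at -0.01, 0.28 and -0.19 in wild type HFD pools and at -0.18, -0.02 and 0.01 in null HFD pools. The highest value of any of the 41 genes was that of Uqcrc1 in wild type casein pool 2. Uqcrc2, the other core protein, was at -0.03, 0.54 and 0.32 in wild type pools on casein, -0.06, 0.06 and -0.01 in null pools on casein, 0.11, 0.26 and -0.50 in wild type HFD pools and -0.10, -0.20 and -0.36 in null HFD pools. Its null pools did not overlap between the diets, and its wild type pools did. Cyc1, cytochrome c1, differed by -0.39 ± 0.18 (SE) between the diets in wild type pools (adjusted p = 0.656).

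Cycs encodes cytochrome c, the soluble carrier between complexes III and IV, and its null HFD pools were again the lowest group. It was at -0.21, -0.25 and -0.33 there and at 0.27, 0.30 and -0.20 in wild type HFD pools. It was at -0.11, 0.00 and 0.07 in null pools on casein and at 0.04, 0.47 and 0.30 in wild type pools on casein. On the HFD the genotypes did not overlap, but wild type pool 3 and null pool 1 were close, and on casein they overlapped. The difference was -0.39 ± 0.14 (SE) on the HFD (adjusted p = 0.123) and -0.33 ± 0.10 over both diets (adjusted p = 0.0668). The diet difference in null pools was -0.25 ± 0.14 (adjusted p = 0.9996). With the widest of its 4 probe sets in place of their mean, the difference over both diets was -0.55 and passed the threshold (adjusted p = 0.0371).

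Complex IV is cytochrome c oxidase, and its median genotype difference was the nearest to 0 of the complexes. The 6 subunits had a median genotype difference of -0.06 over both diets, -0.09 on casein and -0.01 on the HFD, where 3 lay below 0 and 3 above. Cox4i1, the ubiquitous form of the largest nuclear-encoded subunit, was at -0.03, 0.30 and 0.05 in wild type pools on casein, -0.01, 0.02 and 0.12 in null pools on casein, -0.03, 0.05 and -0.14 in wild type HFD pools and -0.05, -0.05 and 0.01 in null HFD pools. The groups overlapped in each comparison, and the genotype difference over both diets, -0.03, turned to 0.02 without wild type casein pool 2. Cox6c, a small subunit, lay above 0 for genotype at 0.14 over both diets, but its probe sets differed. The probe set ending in _a_at ran from -0.62 to 0.05 in wild type and from -0.17 to 0.46 in null pools. For the other the null range, -0.06 to 0.19, lay inside the wild type range, -0.27 to 0.33. Cox5a, which binds the matrix side, differed by -0.24 ± 0.10 (SE) between the diets over both genotypes (adjusted p = 0.942).

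Cox7c, another small subunit, departed from the shared pattern as a mean of its probe sets, since its highest value was in wild type casein pool 1 and not pool 2. The probe set ending in _s_at was at 0.45 in wild type casein pool 1 and at -0.26 in pool 2. The other was highest in pool 2, at 0.33, so the departure came from the _s_at probe set. It was at 0.35, 0.04 and 0.03 in wild type pools on casein and at -0.16, 0.01 and -0.28 in null pools on casein. On the HFD it was at -0.11, 0.08 and -0.12 in wild type pools and at 0.18, 0.16 and -0.20 in null pools. The genotypes were separated on casein, with wild type the higher, and overlapped on the HFD. The _s_at probe set alone overlapped on casein. The difference on casein was -0.29 ± 0.13 (SE, adjusted p = 0.610), and the interaction was 0.38 ± 0.18 (adjusted p = 0.791).

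The 3 assembly factors of complex IV had a median of 0.14 in wild type casein pool 2, against 0.36 for all 41 genes. Cox10 and Cox15 make the heme A of complex IV and Surf1 helps to insert it. Surf1 was at -0.12, 0.09 and 0.01 in wild type pools on casein, -0.01, -0.18 and -0.19 in null pools on casein, 0.15, 0.03 and 0.06 in wild type HFD pools and 0.06, -0.08 and -0.19 in null HFD pools. Its groups overlapped in each comparison. The genotype differences over both diets were -0.14 for Surf1, -0.13 for Cox15 and -0.12 for Cox10. Surf1 was among the few genes above 0 for diet, at 0.09 in wild type and 0.06 in null pools.

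**Figure D4:**
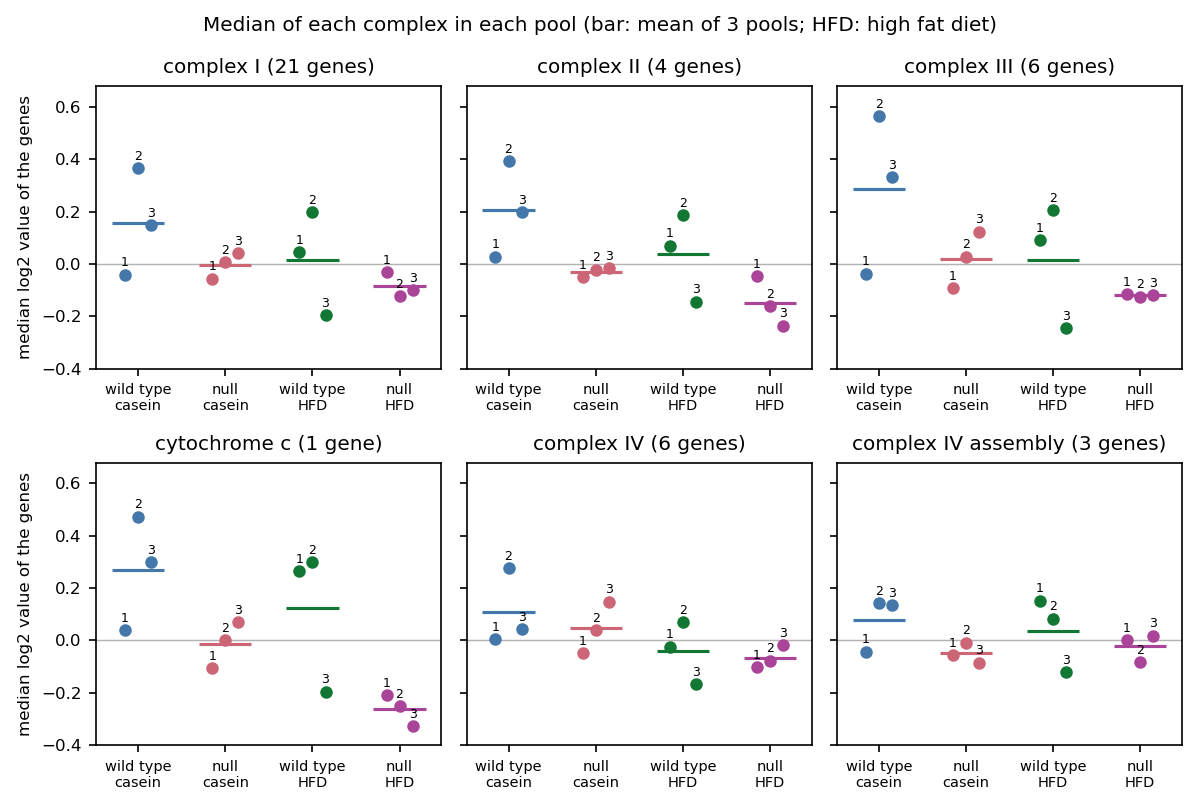
Points are pools, labelled by number, and give the median log2 value of the genes of each complex by genotype and diet, and bars are means of 3 pools. Complexes I, II and III and cytochrome c span the wild type pools on casein widely, with pool 2 highest, and the groups of complex IV and its assembly factors lie closer to 0.

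In the pools that stood furthest out, the medians of the complexes lay on the same side of 0 and varied in size. In wild type casein pool 2 complex III had a median of 0.56, against 0.47 for cytochrome c, 0.39 for complex II, 0.36 for complex I, 0.28 for complex IV and 0.14 for its assembly factors. In wild type HFD pool 3 they were -0.25, -0.20, -0.14, -0.20, -0.17 and -0.12 in the same order. No test compared the complexes. Group means of the complex III median were 0.29 ± 0.30 (SD, n = 3) in wild type casein, 0.02 ± 0.11 in null casein, 0.02 ± 0.23 in wild type HFD and -0.12 ± 0.0044 in null HFD pools.

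The other genes of the chain were taken by list. Of 13 further complex I subunits 0 passed in any of the 7 comparisons, with a median genotype difference of -0.10 over both diets. Of 13 complex I assembly factors 2 were lower in null pools on the HFD, Acad9 at -0.33 ± 0.08 (SE, adjusted p = 0.0431) and Tmem126b at -0.71 ± 0.18 (adjusted p = 0.0436). In that comparison 5.92% of all genes passed in either direction, and 493 of the 18195 were lower. Over both diets 2 of the 13 were lower, against 7.52% of all genes in either direction and 3.42% lower, Ndufaf1 at -0.36 ± 0.09 (adjusted p = 0.0434) and Acad9 at -0.21 ± 0.06 (adjusted p = 0.0494). Acad9, Tmem126b and Ndufaf1 are partners in the assembly complex of the membrane arm. Tmem126b was at 0.34, 0.31 and 0.54 in wild type HFD pools and at 0.03, -0.35 and -0.63 in null HFD pools. Its casein pools overlapped, with the wild type at -0.01, 0.00 and -0.00 and the null at 0.29, -0.08 and -0.33. Of 13 further genes of complexes II and III, 1 was lower on the HFD, Sdhaf3, an assembly factor of complex II, at -0.31 ± 0.07 (adjusted p = 0.0427). This single call stands beside the same 5.92% of all genes in either direction and 493 of 18195 lower.

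Among 5 further complex IV subunit genes, 1, Cox7a2l, passed and was higher in null pools, where 5.92% of all genes passed on the HFD and 7.52% over both diets, in either direction. Cox7a2l was at 0.23, 0.31 and 0.44 in null HFD pools and at -0.22, -0.17 and -0.11 in wild type HFD pools, a difference of 0.49 ± 0.10 (SE, adjusted p = 0.0267). On casein the genotypes overlapped, with the wild type at 0.07, -0.07 and -0.13 and the null at -0.19, 0.11 and 0.11, and over both diets the difference was 0.27 ± 0.07 (adjusted p = 0.0416). Of 11 further complex IV assembly factors 3 were lower in null pools over both diets, against 3.42% of all genes, Coa3 at -0.20 ± 0.05 (adjusted p = 0.0390), Cox18 at -0.30 ± 0.08 (adjusted p = 0.0434) and Cox16 at -0.25 ± 0.06 (adjusted p = 0.0456).

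Of 16 ATP synthase genes 1 was higher in null pools over both diets, Atpif1, the inhibitor of the enzyme, by 0.34 ± 0.08 (SE, adjusted p = 0.0316). The share called was no higher than the 7.52% of all genes in either direction, of which 745 of 18195 genes were higher. Of 11 genes of mitochondrial import and the outer membrane 2 were lower, against 3.42% of all genes, the channel Vdac2 at -0.24 ± 0.06 (adjusted p = 0.0353) and the import pore Timm23 at -0.25 ± 0.07 (adjusted p = 0.0493). Of these 13 calls in the pathway lists, each was lost without at least 5 of the 12 pools taken singly, and the adjusted p then reached at most 0.163. Over all alternatives, each call was lost in at least 7 of its 22 to 24, and that of Acad9 over both diets in 19 of 23. That of Cox7a2l on the HFD was lost without any of the 3 wild type HFD pools and without null HFD pool 2 or 3, with an adjusted p of at most 0.110.

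Of 13 regulators of mitochondrial biogenesis 0 passed in any comparison. Ppargc1a, the coactivator that drives the programme, was at -0.05, 0.71 and -0.04 in wild type pools on casein and at -0.46, 0.03 and -0.02 in null pools on casein. On the HFD it was at 0.02, 0.32 and -0.64 in wild type pools and at 0.28, -0.24 and 0.05 in null pools. Its highest pool was wild type casein pool 2 and its lowest wild type HFD pool 3, as for the median of the 41 genes, and its genotype groups overlapped on both diets (difference over both diets -0.11 ± 0.19 SE, adjusted p = 0.749). Esrra, the gene of ERRα, was 0.36 in wild type casein pool 2 and -0.44 in null casein pool 1, with a genotype difference of -0.38 ± 0.12 on casein (adjusted p = 0.542), -0.06 ± 0.12 on the HFD (adjusted p = 0.8003) and -0.22 ± 0.08 over both diets (adjusted p = 0.128). Their diet differences did not pass either, at -0.31 ± 0.27 for Ppargc1a in wild type pools (adjusted p = 0.786) and -0.16 ± 0.12 for Esrra (adjusted p = 0.759).

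The tissue isoforms of complex IV spread far more between pools than the shared subunits did. Cox7a1, the form of heart, muscle and brown fat, was at 0.64, 2.52 and 1.78 in wild type pools on casein, -1.70, 0.37 and 0.75 in null pools on casein, -0.47, 1.83 and -0.77 in wild type HFD pools and -0.37, -1.02 and -0.85 in null HFD pools. Cox8b, found in the same tissues, was at -0.17, 1.85 and 1.17, at -0.87, 0.68 and 0.99, at -0.90, 0.89 and -0.95 and at -0.28, -0.05 and 0.05 in the same order of groups. Both were highest in wild type casein pool 2, the pool in which 35 of the 41 genes were highest. Cox6a2, a muscle form, was highest in wild type HFD pool 2, at 4.16, and next in null HFD pool 1, at 3.26, and it was -0.24 in wild type casein pool 2. None of these genes passed in any comparison, with genotype differences over both diets of -1.39 ± 0.55 (SE, adjusted p = 0.143) for Cox7a1, -0.23 ± 0.45 (adjusted p = 0.784) for Cox8b and -0.29 ± 0.97 (adjusted p = 0.876) for Cox6a2.

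Ucp1 lets protons return without making ATP and marks thermogenic fat. It was at 1.77, 3.72 and 2.95 in wild type pools on casein, -4.89, 1.41 and 0.86 in null pools on casein, -0.86, 1.95 and -2.05 in wild type HFD pools and -2.53, -1.05 and -1.60 in null HFD pools. Like the respiratory chain genes it was highest in wild type casein pool 2, and its casein groups did not overlap, with a difference of -3.69 ± 1.51 (SE, adjusted p = 0.592). With the brown and beige adipocyte median as a covariate, an alternative added after seeing the data, the median genotype difference of the 41 genes over both diets was -0.08 in place of -0.15, 0 genes passed, and the wild type diet median was -0.02 in place of -0.14. On casein this covariate itself went with genotype, from 0.54 to 1.34 in wild type and from -0.87 to 0.39 in null pools. The 2 are thus confounded there, and the smaller genotype difference cannot be read as a result. With the muscle median alone the genotype median was -0.15 and 1 gene passed. With the medians of muscle, reproductive tract and liver markers together it was 0.12, and on the HFD 0.24, with 0 genes passing. The reproductive tract median itself went with genotype on the HFD, so the sign of these values cannot be read as a result.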

How the data were processed

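Each of the 12 pools gave 8 µg of total RNA for 1 Affymetrix array with 45101 probe sets, per the labels' protocols. The authors used GCOS and RMA, per the submitters' processing notes, which give no versions. The deposited log2 values (base 2 taken because RMA gives it) have a median of 0 over the 12 arrays in every probe set, so they had been centred. The platform table gives 1 gene for 34958 probe sets, several for 932 and none for 9211, and the last 2 kinds were left out. Symbols follow RefSeq (34754 probe sets matched). Of the probe sets of the 41 genes, 48 end in _s_at, _x_at or _a_at and may cross-hybridise, and 10 genes have no others.

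Gene means of probe sets were fitted in R 4.3.3 with limma 3.58.1 (lmFit, contrasts.fit, eBayes) as 4 group means over 12 arrays, with 8 residual and 2.5 prior degrees of freedom, two-sided p-values and Benjamini-Hochberg adjustment over 18195 genes at 0.05, for 7 comparisons. The script was tested on simulated data. Errors are SE of the fit unless SD is named. Groups are called separated when their pools do not overlap. The number of arrays limits the precision. The members and gene lists were chosen with earlier results of these data known. Genes were named by a rule: in each comparison every gene of the 41 past the threshold (up to 12) or, where fewer than 4 pass, the 4 with the smallest p; Ndufb8, Sdhb, Uqcrc2, Cycs, Cox4i1, Surf1 and the 4 widest spans by pool; in the pathway lists those past the threshold (up to 3 a list and comparison); and Ppargc1a, Esrra, Cox6a2, Cox7a1, Cox8b, Ncf1 and Ucp1. Other names were chosen after their values were seen. Alternatives were 11 planned and 2 added after seeing the data.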

Additional observations from a re-analysis of the deposited data

How the results depend on the processing

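Of the 7 comparisons, the count of the 41 genes past the threshold was 0 under every setting run for diet in wild type pools, genotype on casein, the interaction and diet over both genotypes. In the others it depended on the setting. Array weights gave 1 gene for diet in null pools, 8 for genotype on the high fat diet (with 5116 of all genes) and 12 for genotype over both diets (with 4009 of all genes), and their estimation stopped before convergence. Fitting only the groups compared gave 1 on the high fat diet, Ndufb3. Leaving out 1 pool at a time gave 0 to 2 on the high fat diet and 0 to 8 over both diets, with the 8 lacking wild type casein pool 1. Over both diets the count was 3 with the widest probe set of each gene. It was 0 with quantile normalization again, with the 3 tissue covariates, without the 3 pools apart in other tissue markers and with the brown and beige covariate, which left 1132, 4, 548 and 132 of all genes, and the last 2 settings were added after seeing the data. Ndufa8 kept a negative difference in 22 of its 23 alternatives and lost its call in 14 of these, with adjusted p from 0.00447 to 0.9998.

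With the pool number as a replicate block the count over both diets was 0 and the adjusted p of Ndufa8 was 0.0612. Deviations of same-numbered pools of different groups correlated over 0.1 in 3 of 18 pairs, from -0.61 to 0.59. These were null pools 1 and 3 between the diets (0.55 and 0.59) and wild type pool 3 between the diets (0.30). With 3 pools a group such deviations depend on each other, so whether the numbers mark a batch cannot be told. Fitting only the groups compared does not apply to the interaction and the averages, which use all 12 pools.

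With the 3 tissue covariates (muscle, reproductive tract and liver) the medians of the 41 differences were -0.25 for diet in wild type, 0.017 for diet in null (in place of -0.10), -0.12 for diet over both genotypes, -0.029 for genotype on casein, 0.24 on the high fat diet, 0.27 for the interaction and 0.12 over both diets. The cause was not tested. On the high fat diet the reproductive tract median itself went with genotype, from -0.96 to -0.72 in wild type and from 0.12 to 0.81 in null pools. Genotype and this covariate are thus confounded in that fit, and its changes of sign cannot be read as a result. The same setting reversed on the high fat diet Ndufb3 (0.034), Cycs (0.031) and Ndufa8 (0.21), and over both diets Ndufa8 (0.013), Ndufb3 (0.027), Ndufb8 (0.24), Sdhb (0.23), Uqcrc2 (0.20), Cox4i1 (0.15), Surf1 (0.063) and Ndufaf1 (0.012), and the interaction of Ndufb3 (0.014). Cox4i1 also reversed with the brown and beige covariate (0.046) and without wild type casein pool 2, its 12 values with 1 pool left out running from -0.062 to 0.021. The brown and beige median itself went with genotype on casein, so the reversal with that covariate cannot be read as a result. Leaving out 1 pool at a time, the medians ran from -0.23 to -0.05 for diet in wild type, -0.13 to -0.08 in null, -0.27 to -0.07 for genotype on casein, -0.23 to -0.04 on the high fat diet, -0.07 to 0.14 for the interaction, -0.18 to -0.08 for diet and -0.20 to -0.11 for genotype averaged. No scaling moved the median of all genes by over 0.1.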
